A study of Mus musculus with 4 samples.

Results

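The BCL2 family genes described here are 10 genes that decide whether a cell opens its mitochondria and dies: Bcl2, Bcl2l1, Mcl1 and Bcl2a1b, which favour survival, and Bax, Bak1, Bcl2l11, Pmaip1, Bbc3 and Bid, which favour death. They were found by symbol among the 31054 features of the count matrices, each symbol matched 1 feature, and all 10 were measured in all 4 libraries. The data are single-cell RNA counts from the lungs of aged male C57BL/6 mice. Mice of 19 months were given BPTES, a small-molecule inhibitor of the glutaminase GLS1, or DMSO, the solvent that served as its vehicle, for 1 month, and 2 libraries were made for each treatment. All mice were old males on either the drug or its vehicle, so the comparison has no young and no untreated arm. The labels put sorted CD45-negative and CD45-positive cells of a lung together in each library, 20000 and 9000 of them, so the ratio of blood-derived to structural cells was set by the sort. The labels do not say outright that each library is a separate mouse, and the p-values below measure the spread between libraries, which may be partly technical.

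In the mitochondrial pathway of cell death, Bax and Bak1 encode the proteins that form pores in the outer mitochondrial membrane and release cytochrome c, which starts the caspases. Bcl2, Bcl2l1 (Bcl-xL), Mcl1 and Bcl2a1b (a mouse copy of A1, also called Bfl-1) encode proteins that bind and hold the pore formers. Bcl2l11 (Bim), Pmaip1 (Noxa), Bbc3 (Puma) and Bid encode BH3-only proteins, the sensors that respond to cytokine withdrawal, DNA damage, stress or death receptors and neutralise the survival proteins or activate the pore formers. Cell types are known to lean on different survival proteins, among them neutrophils on Mcl1 and lymphocytes on Bcl2. Glutaminase turns glutamine into glutamate, and its inhibition has been studied as a way to kill senescent cells. RNA is only one layer of this control, since Mcl1 and the BH3-only proteins are also set by protein turnover, cleavage and phosphorylation, which these data do not measure.

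The 4 libraries held between 260346570 and 342107092 UMIs (unique molecular identifiers, 1 per captured transcript), and 63895 cells were kept, with library medians of 14087.5 to 15929.5 UMIs per cell. Cells were clustered with every BCL2 family gene left out of the variable genes, and clusters were named from marker genes, so each name ends in "-like". Of 35 clusters, 6 with 14.7% of the cells stayed unnamed. Description covers the 22 named classes that had 20 cells or more in each library, and testing the 19 that had 50 or more. Several names rest on close calls: the arterial-like cluster scored 2.48 for arterial and 2.12 for general capillary markers, the pericyte-like cluster 4.89 for pericyte and 4.37 for smooth muscle markers, and the cluster named for conventional type 2 dendritic cells 4.79 for its own and 3.87 for type 1 markers, with Xcr1 and Ccl22 among its leading genes. Library pairs shared 75 to 121 barcodes, and 0 of these had identical counts. Levels are CPM, the gene's proportion among all UMIs that the class held in a library, with TMM (trimmed mean of M-values) scaling within the class, and given as mean and SD over the 4 libraries. The libraries of each group are named in the order BPTES 1, BPTES 2, DMSO 1, DMSO 2.

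Among the survival genes, Mcl1 was the most abundant in most classes, and the other 3 were each concentrated in their own set of cells. Mcl1 lies on chromosome 3 (95656944 to 95663179, build mm10, GRCm38.p6) and was highest in neutrophil-like cells, at 2118 CPM (SD 232, n = 4). Its level there was 2061, 1823, 2365 and 2221 CPM in the 4 libraries. Every neutrophil-like value lay above every classical monocyte-like value, the next class with 930 CPM (SD 32.1). Other myeloid classes followed without a clear order: alveolar macrophage-like cells at 718, non-classical monocyte-like cells at 708, interstitial macrophage-like cells at 667 and dendritic-like cells at 640.1 CPM. The lowest Mcl1 levels were in T-like cells (239 CPM) and in the epithelial AT2-like (193 CPM) and ciliated-like cells (175 CPM, SD 31.7). After every cell was thinned to 3000 UMIs, 98.8% of neutrophil-like and 35.8% of ciliated-like cells had at least 1 Mcl1 UMI (99.9% and 90.5% before thinning), at median depths of 9045 and 33030.5 UMIs.

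Bcl2, the founding survival gene of the family (chromosome 1, 106538176 to 106714290), was highest in T-like cells, with 682, 783, 727 and 872 CPM in the 4 libraries and a mean of 766 CPM (SD 82.0). NK-like cells had 653, 597, 686 and 624 CPM, a mean of 640.4 (SD 38.4). The ranges of these lymphocyte classes overlapped, and both lay wholly above non-classical monocyte-like cells, which had 369 CPM (SD 66.6). B-like cells had 211 CPM and plasma-like cells 176 CPM. At the other end, AT2-like cells had 11.3 CPM and neutrophil-like cells 10.3 CPM (SD 5.21), and the ranges of these classes overlapped. In thinned cells, 62.4% of T-like and 67.4% of NK-like cells had a Bcl2 UMI, against 1.47% of neutrophil-like cells (82.3%, 89.0% and 3.45% before thinning), at median depths of 16004, 13178 and 9045 UMIs.

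Bcl2l1 (chromosome 2, 152758732 to 152833803), the gene of Bcl-xL, was highest in the cells that line vessels. Aerocyte endothelial-like cells, the wide capillary cells of gas exchange, had a mean of 181 CPM (SD 43.6). General capillary (164), venous (158), arterial (148) and lymphatic endothelial-like cells (131 CPM) came close behind, interrupted only by neutrophil-like cells at 133 CPM (SD 23.7). The ranges of these 6 classes overlapped from each to the next. Classical monocyte-like (8.90 CPM), plasma-like (7.90 CPM) and B-like cells (7.501 CPM) were at the bottom. The rank of the top class depended on the scaling: with TMM computed over all classes together, neutrophil-like cells led with 252 CPM.

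Bcl2a1b is 1 of a cluster of near-identical A1 genes on chromosome 9 (89199273 to 89207838), and it was highest in myeloid classes. Dendritic-like cells had 512, 410.5, 391 and 360.2 CPM, interstitial macrophage-like cells 428, 373, 474 and 372 CPM, non-classical monocyte-like cells 356, 379.8, 325 and 363 CPM, and alveolar macrophage-like cells 343, 338, 326 and 340 CPM. These 4 myeloid classes overlapped in turn and all lay above T-like (184 CPM), neutrophil-like (176 CPM) and NK-like cells (122 CPM). Classical monocyte-like cells had only 37.4 CPM. B-like cells had 57.3, plasma-like cells 54.8 and AT2-like cells 25.7 CPM. All remaining classes had at most 4.78 CPM, and venous endothelial-like cells had 0.340 CPM. In thinned cells, 57.0% of interstitial macrophage-like cells had a Bcl2a1b UMI against 0.149% of general capillary-like cells (90.8% and 0.606% before thinning), at median depths of 28970.5 and 13149 UMIs.

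AT2-like cells, the surfactant makers of the alveolus, were the exception among structural cells, with 25.0, 23.8, 25.5 and 28.6 CPM of Bcl2a1b and a mean of 25.7 CPM (SD 2.06). The value was much the same in the 4 libraries and far above ciliated-like cells (1.02 CPM). Before thinning, 51.9% of AT2-like cells had a Bcl2a1b UMI and 2.09% of ciliated-like cells, at median depths of 45970.5 and 33030.5 UMIs (6.72% and 0.239% after thinning). The UMIs were spread over cells, with 4.40% to 10.9% of a library's in its 2 richest AT2-like cells. As counted, with the limit on telling copies apart given in the next paragraph, Bcl2a1a and Bcl2a1d had 6.17 and 1.23 CPM in AT2-like cells, and 196 and 143 CPM beside 337 CPM of Bcl2a1b in alveolar macrophage-like cells.

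Reads can tell the A1 copies apart only in part. Transcripts of Bcl2a1b were 98.2% identical to Bcl2a1a and 99.1% identical to Bcl2a1d. Stretches of 90 bases were taken within the last 400 bases, where 3′ libraries read. Of these, 34.1% for Bcl2a1b, 27.0% for Bcl2a1a and 60.8% for Bcl2a1d also occurred in another copy. The counts of the copies are therefore uncertain in amount and as to the copy. Their promoters (250 bases before to 50 after the start site, RefSeq, GRCm38.p6) were as alike where they aligned. Identity was 99.2% over 256 aligned bases between Bcl2a1b and Bcl2a1a and 98.8% over 250 between Bcl2a1b and Bcl2a1d, with gaps not counted. All 3 hold the letters GAGGAAGT, a form of the site read by ETS factors such as PU.1. Of the 10 survival and death genes, 9 had a promoter in the table, and Bak1 was the only other with the letters on either strand. Over all 32851 promoters the share was 3.20%. Mcl1, Bax, Pmaip1, Bbc3 and Bid also had their highest level in a myeloid class, and these letters are in none of those promoters that the table held. The stretches of 108 bases show how alike the A1 copies are and, with Bak1, where the letters lie, with the match in capitals (for Bak1 the reverse complement, ACTTCCTC). A match of letters is a description and not evidence of binding. Bcl2a1b is at chr9:89199075-89199182 on the plus strand, Bcl2a1d at chr9:88731897-88732004 on the minus strand and Bak1 at chr17:27028592-27028699 on the minus strand. Bcl2a1a, at chr9:88956766-88956873, has the same 108 letters as Bcl2a1b.
Bcl2a1b: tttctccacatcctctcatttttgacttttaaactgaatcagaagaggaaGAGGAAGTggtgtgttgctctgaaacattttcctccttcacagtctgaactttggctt
Bcl2a1d: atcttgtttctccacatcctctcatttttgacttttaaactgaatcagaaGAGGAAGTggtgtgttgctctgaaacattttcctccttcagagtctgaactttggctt
Bak1: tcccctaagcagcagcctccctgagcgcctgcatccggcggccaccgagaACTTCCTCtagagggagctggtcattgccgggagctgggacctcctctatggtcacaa

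**Figure D1:**
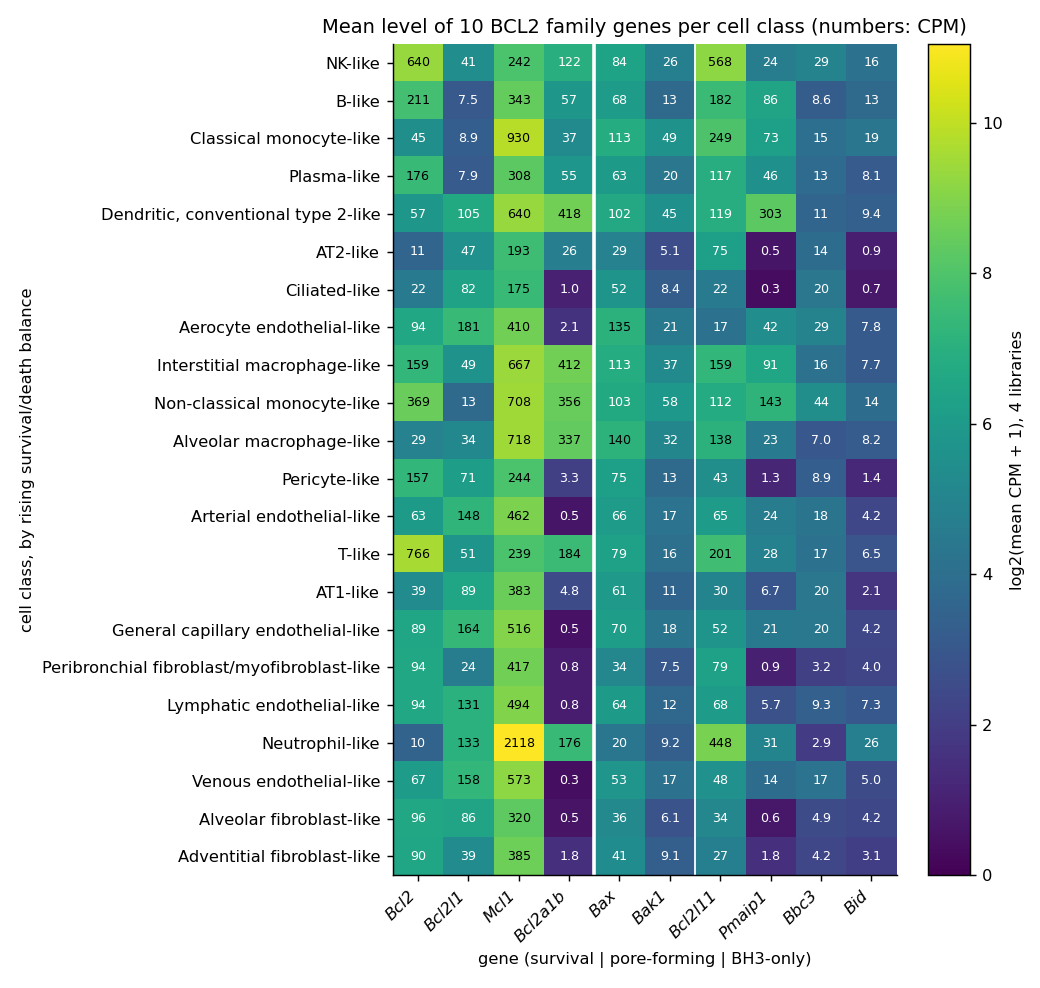
Levels of the 10 BCL2 family genes (columns) in the 22 named cell classes (rows), as mean CPM over the 4 libraries (numbers), coloured by log2(CPM + 1). Mcl1 is high in all classes with its peak of 2118 CPM in neutrophil-like cells, Bcl2 peaks in T-like and NK-like cells, Bcl2l1 in endothelial-like cells and Bcl2a1b in myeloid classes.

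By the ratio of the highest to the lowest class, the pore-forming genes varied less than Bcl2, Bcl2l1 and Bcl2a1b. Bak1 and Mcl1 were alike by that measure. Bax (chromosome 7, 45461695 to 45466903) was highest in alveolar macrophage-like cells, at 145, 149, 126 and 140.2 CPM (mean 140.3, SD 9.92). Aerocyte-like cells had 135 CPM (SD 11.1), and these ranges overlapped. Interstitial macrophage-like, classical monocyte-like, non-classical monocyte-like and dendritic-like cells had 102 to 113 CPM. Neutrophil-like cells had the least with scaling within the class, 19.5 CPM (SD 6.16). Bak1 (chromosome 17, 27019812 to 27028627), the gene of the other pore former, was highest in non-classical monocyte-like cells at 58.5 CPM (SD 4.35), then in classical monocyte-like (49.1), dendritic-like (45.1), interstitial macrophage-like (37.4) and alveolar macrophage-like cells (32.4 CPM). Its lowest level was 5.12 CPM in AT2-like cells, a class that was also low in Bax at 29.2 CPM.

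Among the BH3-only genes, each had a different leading class with scaling within the class. With TMM over all classes together, neutrophil-like cells led both Bcl2l11 and Bid. Bcl2l11 (chromosome 2, 128126038 to 128162547), the gene of Bim, was highest in NK-like cells with 522, 582, 618 and 550.4 CPM, a mean of 568 (SD 41.4). Neutrophil-like cells had 448 CPM (SD 13.1), and classical monocyte-like cells 249 CPM. These 3 classes did not overlap in their libraries. With TMM over all classes together the order of the first 2 was the other way round, with neutrophil-like cells at 843 CPM. T-like (201 CPM) and B-like cells (182 CPM) came next, and aerocyte-like cells had the least, 17.1 CPM (SD 3.07). In thinned cells, 67.7% of NK-like and 4.52% of aerocyte-like cells had a Bcl2l11 UMI (89.3% and 19.3% before thinning), at median depths of 13178 and 17952 UMIs.

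Pmaip1, the gene of Noxa, an inhibitor chiefly of Mcl1 and A1, was highest in the dendritic-like class. Its level there was 298, 303, 287 and 325 CPM, a mean of 303 (SD 15.9). Non-classical monocyte-like cells had 143 CPM (SD 18.3), and neither class overlapped with the next. Interstitial macrophage-like cells (91.0 CPM), B-like cells (85.6 CPM) and classical monocyte-like cells (73.4 CPM) followed, while AT2-like (0.540 CPM) and ciliated-like cells (0.292 CPM) had almost none. In thinned cells, 48.1% of dendritic-like cells and 0.0700% of ciliated-like cells had a UMI (90.2% and 0.910% before thinning), at median depths of 33940.0 and 33030.5 UMIs.

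Bbc3 and Bid were low everywhere. Bbc3 (chromosome 7, 16308398 to 16318334), the p53 target that encodes Puma, reached 43.7 CPM (SD 3.43) in non-classical monocyte-like cells, above all libraries of the next class, NK-like cells with 29.4 CPM. Aerocyte-like cells had 29.3 CPM and general capillary-like cells 20.2 CPM, and neutrophil-like cells had the least with 2.94 CPM. Bid (chromosome 6, 120893119 to 120917062), the link from death receptors to mitochondria, reached 26.1 CPM (SD 1.502) in neutrophil-like cells. Classical monocyte-like cells had 19.1 CPM without overlap, and ciliated-like cells the least with 0.712 CPM. The highest class was the same under TMM over all classes together for 8 of the 10 genes, all but Bcl2l1 and Bcl2l11. The lowest classes, and ratios to them, were not compared under that scaling. It raised neutrophil-like levels, Bid from 26.1 to 49.1 CPM, so the last places of neutrophil-like cells hold for scaling within the class. These orders describe classes drawn from the same 4 libraries and carry no test.

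The balance of survival over death RNA was taken as the log2 ratio of the summed CPM of the 4 survival genes over that of the 6 death genes. It was above 0 in all 22 classes, which means more RNA of these 4 genes than of these 6. The sign and the order of classes hold for these genes only. Bok and Bad, given below, are not in the sums and were high in ciliated-like cells, whose sums were 280 and 103 CPM. Bik, another death gene given below, is also left out. It was highest in general capillary-like and venous-like cells, whose death sums were 185 and 154 CPM. On the survival side Bcl2a1a and Bcl2a1d are left out. They were highest, in that order, in alveolar macrophage-like and dendritic-like cells, with survival sums of 1119 and 1221 CPM. The balance was not computed with these genes. The balance ran from 0.48 (SD 0.09) in NK-like cells to 2.60 (SD 0.09) in adventitial fibroblast-like cells. As ratios these are 1.40 (SD 0.0889) and 6.05 (SD 0.384). NK-like cells had 1046 CPM of survival and 748 CPM of death genes, and adventitial fibroblast-like cells 516 and 85.3 CPM. NK-like libraries gave 0.59, 0.37, 0.51 and 0.47, and adventitial-like libraries 2.62, 2.66, 2.46 and 2.64, so the ends of the scale were far apart.

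B-like (0.74), classical monocyte-like (0.98), plasma-like (1.02), dendritic-like (1.05) and AT2-like cells (1.15) made up the rest of the lower end. Venous endothelial-like (2.37) and alveolar fibroblast-like cells (2.56) stood near the top, with neutrophil-like cells at 2.18. Neutrophil-like cells reached that value at high levels on both sides, 2437 CPM of survival and 536 CPM of death genes. Among neighbours in this order only B-like and classical monocyte-like cells had ranges that did not overlap.

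**Figure D2:**
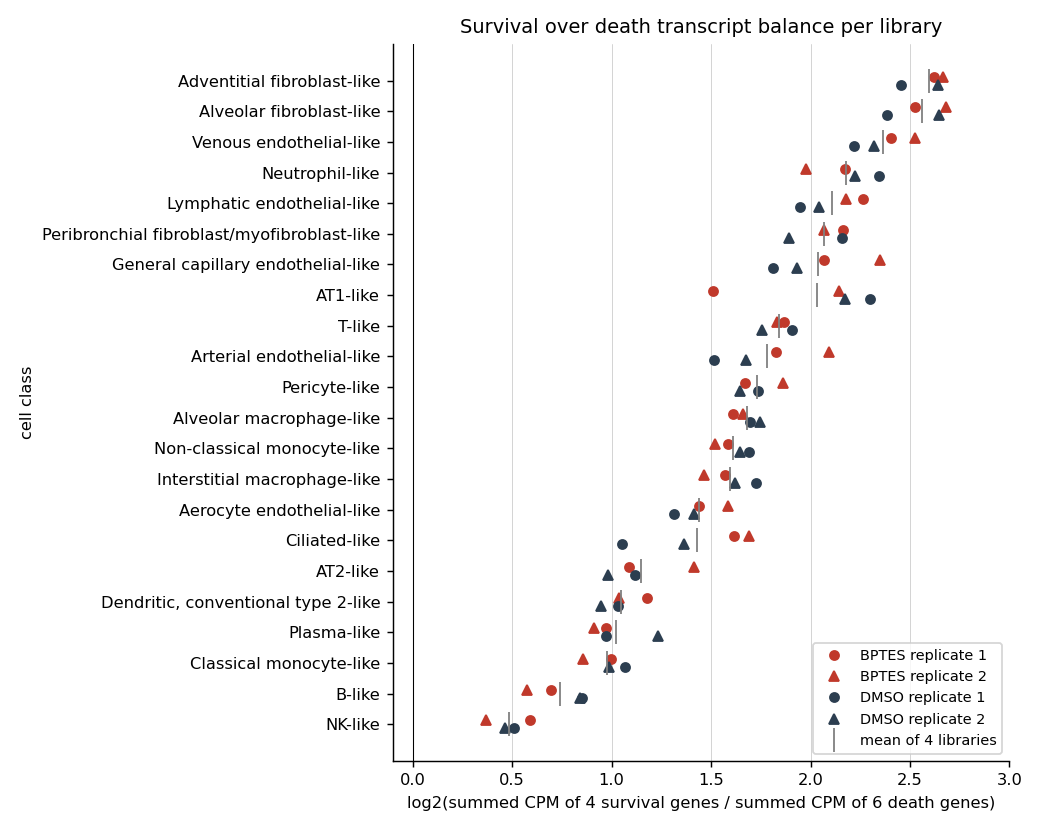
Log2 ratio of summed survival over summed death RNA in the 22 classes, with 1 point per library coloured by treatment and a line at the mean. All classes lie above 0, NK-like cells are lowest at 0.48 and adventitial fibroblast-like cells highest at 2.60.

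The make-up of the sums differed more than their ratio. Mcl1 was the leading survival gene in 20 of 22 classes and Bcl2 in the other two, T-like cells with 61.7% and NK-like cells with 61.2% of survival RNA. Mcl1 held 91.1% of survival RNA in classical monocyte-like and 86.8% in neutrophil-like cells, against 19.3% in T-like cells. Bcl2a1b supplied 34.1% in dendritic-like, 32.0% in interstitial macrophage-like, 30.2% in alveolar macrophage-like and 24.7% in non-classical monocyte-like cells. On the death side, Bax led in 10 classes, Bcl2l11 in 10 and Pmaip1 in dendritic-like (51.4%) and non-classical monocyte-like cells (30.1%). Bcl2l11 held 83.5% of death RNA in neutrophil-like and 75.9% in NK-like cells.

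Because Mcl1 dominates the sum, the order turned when it was left out. Without Mcl1 the lowest class was classical monocyte-like at -2.53, followed by neutrophil-like at -0.75, and the highest was T-like at 1.53, and 7 of the 22 classes lay below 0. NK-like cells then stood at 0.10 and adventitial fibroblast-like cells at 0.61. With the mean of log2(CPM + 1) of each group of genes in place of the sums, classical monocyte-like cells were again lowest at 0.15 and T-like cells highest at 2.68.

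**Figure D3:**
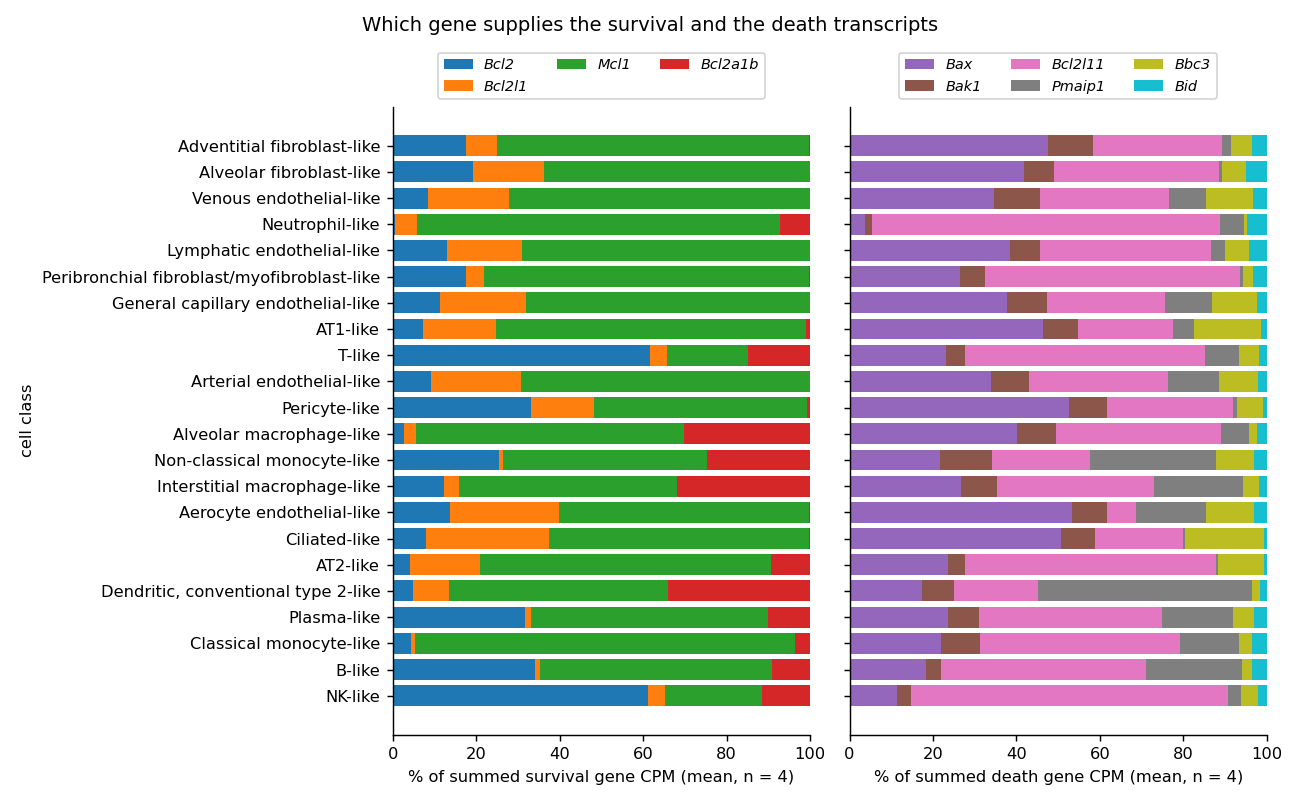
Share of each survival gene in summed survival RNA (left) and of each death gene in summed death RNA (right), in percent, per class as the mean of 4 libraries. Mcl1 is the largest part of the left side outside T-like and NK-like cells, and Bax, Bcl2l11 or Pmaip1 leads on the right depending on the class.

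Other genes of the family also differed in level between classes. Of the 2 further A1 copies, Bcl2a1a was highest in alveolar macrophage-like cells (196 CPM) and Bcl2a1d in dendritic-like cells (214 CPM). Bok, a relative of the pore formers, was highest in ciliated-like (149 CPM) and lymphatic endothelial-like cells (95.0 CPM). Bik, a BH3-only gene, was highest in general capillary-like (53.6 CPM), venous-like (45.7 CPM) and arterial-like cells (39.997 CPM). Bad, which binds Bcl2 and Bcl-xL, was highest in ciliated-like cells (77.9 CPM).

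For each of the 10 genes, the genes with the most similar pattern were sought among 14145 genes. The measure was the Pearson correlation of mean log2(CPM + 1), with CPM not TMM-scaled, over the 22 classes, which share the same libraries. For Bcl2a1b they were its copy Bcl2a1d (r = 0.9746), Rgs1 (0.948) and Laptm5 (0.947). For Bcl2 they were Rad18 (0.908), Rpa2 (0.902) and Rngtt (0.874), and for Mcl1 the gene C130050O18Rik (0.878), Spag9 and Ndel1. For Bcl2l1 they were Actn1 (0.795), Id1 and Vsig10. Bax was closest to Dr1 (0.949), Vac14 and Faim, and Bak1 to Ppp1r15b (0.914), Naip5 and Api5. Bcl2l11 was closest to Frat1 (0.909), Btg1 and Hcst, Pmaip1 to Nrros (0.959), Abcg3 and Inpp5d, Bbc3 to Tmem128 (0.871), Nxt1 and Dcp2, and Bid to Capza1 (0.929), Arpc3 and Crlf2. These correlations describe the classes and carry no test.

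The treatment comparison asked whether BPTES shifted these genes within a class. In the 12 largest classes, 117 pairs of gene and class could be tested, and edgeR's quasi-likelihood test with Benjamini-Hochberg adjustment called 0 of them at an adjusted p under 0.05, where 0.106% of all gene and class pairs tested were called. The smallest adjusted p among them was 0.0832. At an unadjusted p under 0.05 there were 30 of 117 (25.6%; 21 higher and 9 lower with BPTES), against 14% of all genes. Both BPTES libraries lay above both DMSO libraries for 37 pairs and below for 23, against 23.1% and 23.3% of all genes. DESeq2 called 6 of these pairs and gave 21 an unadjusted p under 0.05, against 1.82% and 7.79% of all genes. The 1.82% is of the 124599 gene and class pairs that DESeq2 gave an adjusted p, out of 156274 tested. Pairs without an adjusted p could not be called. Its calls were Bcl2l1 in aerocyte-like and lymphatic-like cells and Bcl2 in arterial-like and venous-like cells, all higher with BPTES, and Bcl2l1 in neutrophil-like and Bcl2 in non-classical monocyte-like cells, both lower. The edgeR count turned on the libraries: 12 calls without BPTES replicate 1, 1 without BPTES replicate 2, 2 without DMSO replicate 1 and 7 without DMSO replicate 2, where 2.48%, 0.444%, 0.856% and 1.52% of all pairs were called. In each such fit 1 group is a single library, which is assumed to vary like the pair in the other group, so these fits and those below show dependence on a library and lend no support to a call.

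Counts of classes by direction were taken for each gene. Over the 12 classes, Bcl2l1 was higher in both BPTES libraries in 6 classes and lower in 1, and Bcl2 higher in 5 and lower in 2. Mcl1 was higher in 3 and lower in 3, and Bcl2a1b, tested in 9 classes, higher in 2 and lower in 1. Of the death genes, Bcl2l11 was higher in 0 classes and lower in 6, Pmaip1 higher in 5 and lower in 4, and Bbc3 higher in 6 and lower in 2. Bax was higher in 3 and lower in 1, Bak1 higher in 4 and lower in 3, and Bid higher in 3 and lower in 0. In all other pairs the libraries of the groups overlapped. The share of all genes was 23.1% and 23.3%, as given above. Furthest above it were Bcl2l1 and Bbc3 higher and Bcl2l11 lower, in 6 of 12 classes each, then Bcl2 and Pmaip1 higher in 5. The classes share the same libraries, so these counts are not independent and carry no test.

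**Figure D4:**
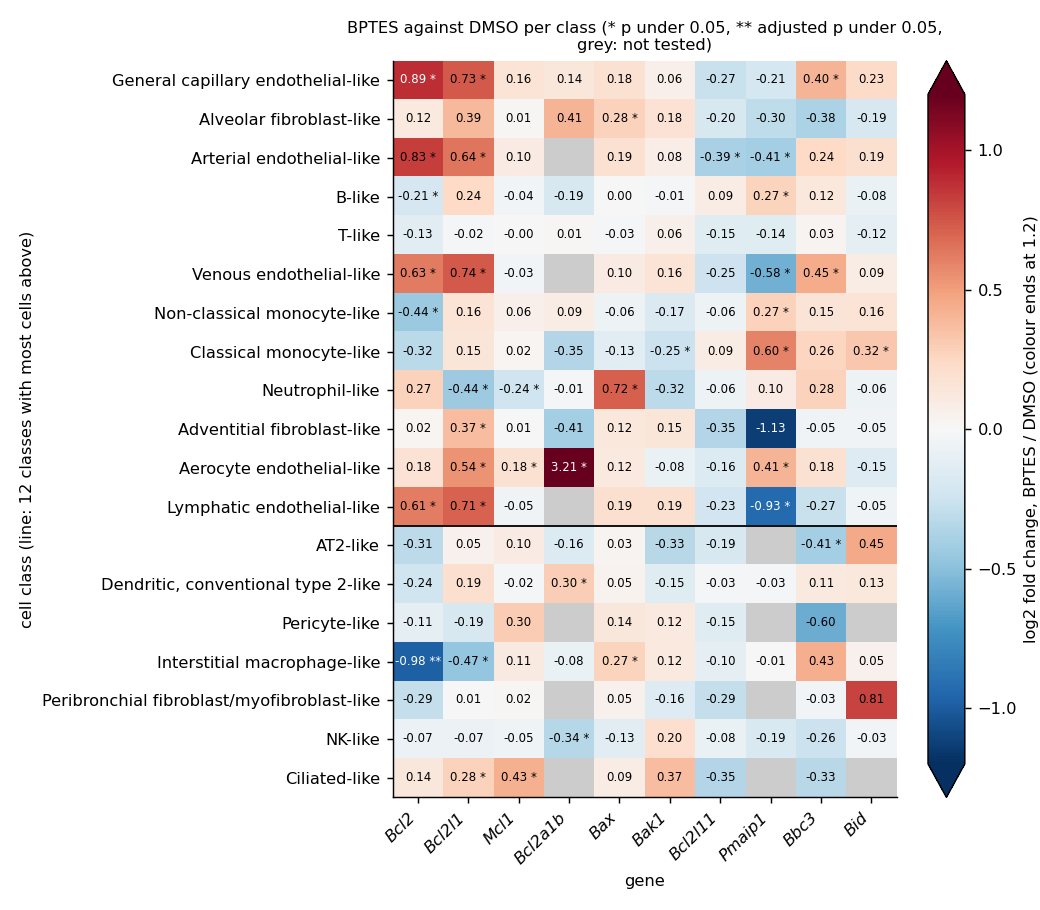
Log2 fold change of BPTES over DMSO for each of the 10 genes (columns) in each tested class (rows), from edgeR. 1 star marks an unadjusted p under 0.05, 2 stars an adjusted p under 0.05, and grey marks pairs that were not tested. Bcl2 and Bcl2l1 are positive in the endothelial-like rows, and the only pair with 2 stars is Bcl2 in interstitial macrophage-like cells.

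In endothelial classes, Bcl2 and Bcl2l1 were mostly higher with BPTES, without passing the test in any. Bcl2l1 was higher in both BPTES libraries in 5 of 5 endothelial classes, with log2 fold changes of 0.54 to 0.74 and an unadjusted p under 0.05 in each, but adjusted p of 0.0832 to 0.333. In general capillary-like cells 27.9% of all genes lay higher in both BPTES libraries, 28% lower, and 20.3% had an unadjusted p under 0.05. In aerocyte-like cells these shares were 20.1%, 20.6% and 9.65%. The classes share the same 4 libraries and are not independent. Bcl2 was higher in both BPTES libraries in 4 of 5, with log2 fold changes of 0.18 to 0.89 over the 5 classes and adjusted p of 0.0921 to 0.643.

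In general capillary-like cells, the largest class with 11296 cells, Bcl2 had 89.99 and 142 CPM with BPTES and 53.6 and 71.3 CPM with DMSO. The groups did not overlap, and BPTES replicate 2 was the highest (log2 fold change 0.89, SE 0.224, adjusted p = 0.149). Bcl2l1 there had 170.0 and 239 CPM against 91.5 and 154 CPM, with DMSO replicate 1 well below the other three (0.73, SE 0.254, adjusted p = 0.199). The shares of cells with a Bcl2l1 UMI after thinning were 36.4%, 45.2%, 23.1% and 34.3%, in the same order as the levels. Bbc3, on the death side, had 22.1 and 23.9 against 16.4 and 18.3 CPM (0.40, SE 0.0962, adjusted p = 0.149), also without overlap. Single libraries decided these values: without BPTES replicate 1, Bcl2, Bcl2l1 and Bbc3 passed the test (adjusted p = 0.00194, 0.0218 and 0.0304), and without DMSO replicate 1 Bcl2 had an adjusted p of 0.755.

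Arterial-like cells had 63.1 and 98.7 CPM of Bcl2 with BPTES and 43.9 and 46.8 CPM with DMSO (0.83, SE 0.175, adjusted p = 0.0921). Venous-like cells had 73.7 and 90.3 against 47.6 and 58.0 CPM (0.63, SE 0.131, adjusted p = 0.178). Lymphatic-like cells had 94.1 and 134 against 73.2 and 75.6 CPM (0.61, SE 0.154, adjusted p = 0.131). None of these overlapped between groups, whereas aerocyte-like cells did, with 92.3 and 106 against 79.3 and 96.0 CPM. For Bcl2l1, lymphatic-like cells had 161 and 165 against 80.3 and 119.9 CPM (0.71, SE 0.153, adjusted p = 0.0832). Aerocyte-like cells had 197 and 232 against 129.6 and 165 CPM (0.54, SE 0.112, adjusted p = 0.136). DMSO replicate 1 was the lowest library for Bcl2l1 in all 5 endothelial classes. Without BPTES replicate 1, Bcl2 passed the test in arterial-like (adjusted p = 0.000130) and lymphatic-like cells (0.00465), and Bcl2l1 in arterial-like (0.0237) and aerocyte-like cells (6.92e-05). Without DMSO replicate 2, Bcl2l1 passed in arterial-like (0.0155), venous-like (0.000313), aerocyte-like (0.0109) and lymphatic-like cells (0.00133) and Bcl2 in venous-like cells (0.0201). Without BPTES replicate 2 only Bcl2l1 in aerocyte-like cells passed (0.00372), and without DMSO replicate 1 neither gene passed in any endothelial class.

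**Figure D5:**
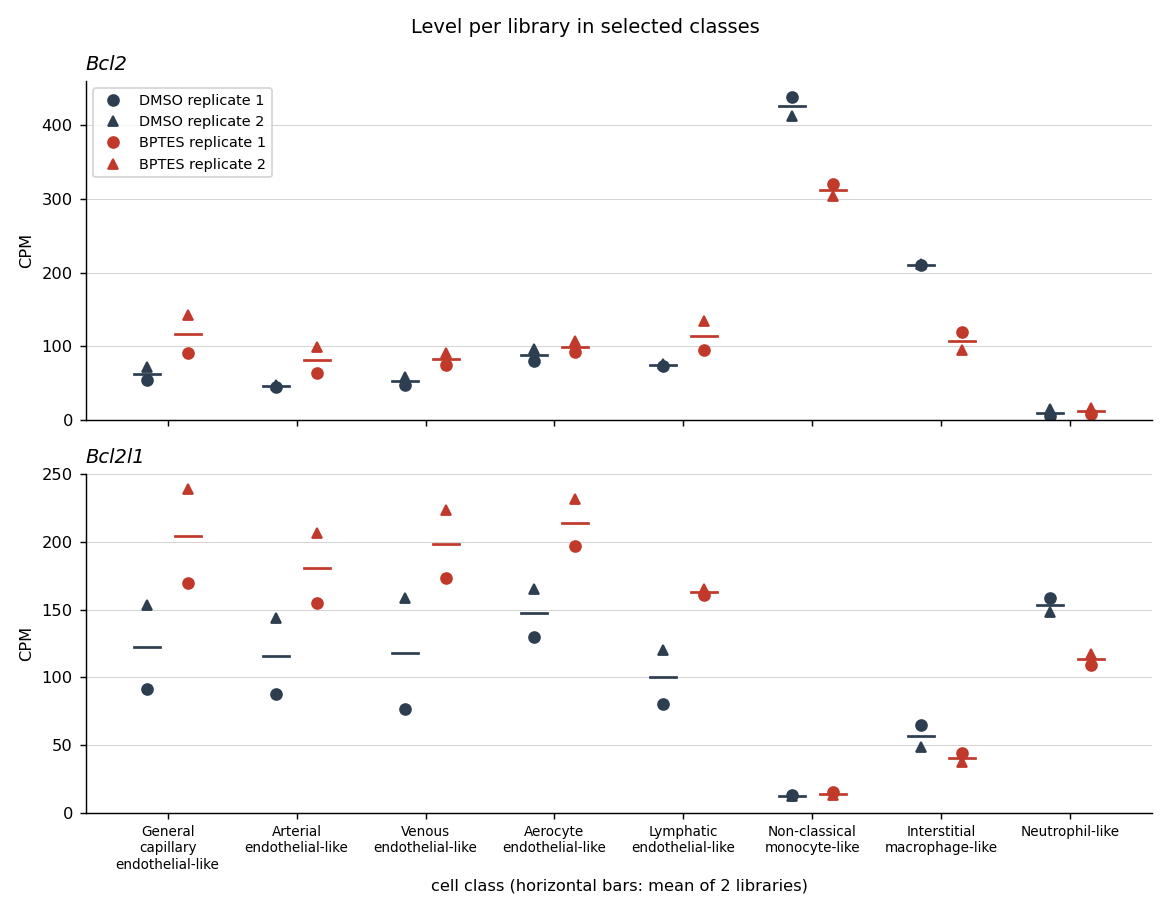
Levels of Bcl2 and Bcl2l1 in CPM per library in the 5 endothelial-like and 3 myeloid classes, with 1 point per library and a bar at the mean of each group. In the endothelial-like classes both BPTES libraries lie above both DMSO libraries for Bcl2l1, and for Bcl2 in 4 of 5, with 89.99 and 142 against 53.6 and 71.3 CPM of Bcl2 in general capillary-like cells.

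Death genes in the endothelial classes did not go one way. Bcl2l11 was lower in both BPTES libraries in 3 of 5 classes and higher in 0, with log2 fold changes of -0.39 to -0.16. Of all genes, between 20.1% and 28% lay wholly to one side in these classes, in each direction. In arterial-like cells it had 63.2 and 49.9 CPM with BPTES and 75.7 and 72.4 CPM with DMSO (adjusted p = 0.132, and 0.00648 without BPTES replicate 1). Pmaip1 was lower in both BPTES libraries in 4 classes and higher in 1. It had 11.4 and 10.8 against 18.9 and 14.6 CPM in venous-like cells (-0.58, adjusted p = 0.289), but 49.0 and 47.5 against 37.8 and 35.0 CPM in aerocyte-like cells (0.41, adjusted p = 0.239). Bbc3 was higher in 4 and lower in 1, Bak1 higher in 3 and lower in 0, Bid higher in 2 and lower in 0, and Bax higher in 1 and lower in 0. The log2 balance was higher in both BPTES libraries in 7 of the 22 classes, the 5 endothelial classes and ciliated-like and dendritic-like cells. It was lower in both in 6, which were B-like, non-classical monocyte-like, neutrophil-like, interstitial macrophage-like, alveolar macrophage-like and AT1-like cells, and the groups overlapped in 9. BPTES exceeded DMSO by 0.44 in ciliated-like cells and by 0.15 to 0.36 in the endothelial classes. In general capillary-like cells the balance was 2.07 and 2.35 against 1.81 and 1.93. In the 12 largest classes it was higher in both BPTES libraries in 5 and lower in 3, where 23.1% and 23.3% of single genes lay to each side. No such share was taken for ratios of sums. The classes share the same libraries, and the endothelial balances hold the Bcl2 and Bcl2l1 values above. AT1-like cells numbered 96, 59, 34 and 74, with 41.1% of them under 3000 UMIs.

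Genes induced by tissue dissociation were read beside these values, in CPM without TMM scaling, while the shares of all genes rest on TMM-scaled CPM. Of 12 such genes, 7 were lower in both BPTES libraries in general capillary-like (28% of all genes), 8 in arterial-like (25.7%), 8 in venous-like (22.8%), 10 in aerocyte-like (20.6%) and 3 in lymphatic-like cells (21.6%), and their summed level in general capillary-like cells was 9298, 7798, 10751 and 9647 CPM. Marker RNA of AT2 cells in general capillary-like cells summed to 354, 245, 91.2 and 196 CPM, also higher in both BPTES libraries. Median mitochondrial percentages per cell were also higher in both BPTES libraries in 4 of the 5 endothelial classes, at 1.24, 1.36, 1.14 and 1.16% in general capillary-like cells, as were median UMIs, at 13200.0, 14000.5, 12741 and 12888.5 there. The lymphatic-like libraries overlapped in both. The part of these measures in the Bcl2 and Bcl2l1 values was not tested. Bcl2a1b in aerocyte-like cells had the largest fitted fold change of the 10 genes in these classes (3.21, adjusted p = 0.118, and 0.00466 without BPTES replicate 1), but it rested on 19, 33, 2 and 3 UMIs, of which the 2 richest cells held 14 of 19 and 30 of 33 in the BPTES libraries.

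In non-classical monocyte-like cells Bcl2, and in neutrophil-like cells Bcl2l1 and Mcl1, were lower in both BPTES libraries, again short of the threshold. Non-classical monocyte-like cells had 320 and 305 CPM of Bcl2 with BPTES and 439 and 413 CPM with DMSO, without overlap (log2 fold change -0.44, SE 0.0697, adjusted p = 0.0974), where 20.4% of all genes lay lower in both BPTES libraries. Of the 12 dissociation genes in that class, 4 were higher and 2 lower in both BPTES libraries and 6 had an unadjusted p under 0.05 (9.45% of all genes), and their part was not tested. Neutrophil-like cells had 109 and 117 CPM of Bcl2l1 with BPTES and 158 and 148 CPM with DMSO (-0.44, SE 0.0963, adjusted p = 0.0881). Their Mcl1, the main survival gene of neutrophils, was lower by less (-0.24, adjusted p = 0.227), and Bax had 22.1 and 26.4 against 11.97 and 17.6 CPM (0.72, adjusted p = 0.218). The TMM factors of this class were 1.054 and 1.061 with BPTES and 0.949 and 0.942 with DMSO. Without them the Mcl1 values of the groups overlap, while Bcl2l1 stays lower and Bax higher in both BPTES libraries. Of all genes in neutrophil-like cells, 22.5% lay lower in both BPTES libraries and 21.6% higher. Neutrophil marker RNA in that class summed to 78021 and 80866 CPM with BPTES and 104701 and 110613 CPM with DMSO. Of the 12 dissociation genes there, 6 had an unadjusted p under 0.05 (13.8% of all genes), and Egr1 was called lower. The part of the markers and of these genes in the values was not tested.

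Pmaip1 was higher in both BPTES libraries in monocyte-like and B-like cells. Classical monocyte-like cells had 98.5 and 78.5 CPM with BPTES and 46.4 and 70.2 CPM with DMSO (0.60, SE 0.189, adjusted p = 0.214, and 0.0106 without DMSO replicate 2). Non-classical monocyte-like cells had 159 and 154 against 118 and 139 CPM (0.27, adjusted p = 0.387), and B-like cells 96.2 and 90.7 against 81.1 and 74.4 CPM (0.27, adjusted p = 0.669). In each the groups did not overlap, and in none did the difference pass the test with all libraries. Of all genes in these classes, 24%, 20.4% and 17.8% lay higher in both BPTES libraries. Over the 12 largest classes Pmaip1 was higher in both in 5 and lower in both in 4. Of the 12 dissociation genes, 9 were higher in both BPTES libraries in classical monocyte-like cells (24% of all genes) and 0 were called, and their part was not tested.

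In the 7 further classes, 61 pairs could be tested and 1 was called, where 0.509% of all pairs tested were called and 0.325% called lower. Of the 61, 8 had an unadjusted p under 0.05 (13.1%, against 11% of all genes), 8 were higher in both BPTES libraries and 11 lower (21.1% and 21.4% of all genes). Mcl1 in ciliated-like cells, with 194 and 208 CPM against 139 and 159 CPM, did not overlap between groups and was not called (0.43, adjusted p = 0.189). Of the 12 dissociation genes in ciliated-like cells, 9 had an unadjusted p under 0.05 (9.19% of all genes), with a median log2 fold change of -0.29. Their part was not tested. The call was Bcl2 in interstitial macrophage-like cells, a class of 242, 304, 116 and 202 cells. Its level was 119.5 and 94.0 CPM with BPTES and 209.9 and 211 CPM with DMSO, from 987, 976, 774 and 1301 UMIs. Both BPTES libraries lay well below both DMSO libraries, a log2 fold change of -0.98 (SE 0.125, fold 0.506, adjusted p = 0.0141). In that class 3.15% of the 12463 genes tested were called, 2% lower and 1.15% higher. The 2 richest cells held 10.3% to 17.8% of the Bcl2 UMIs of a library. In thinned cells, the share with a Bcl2 UMI was 19.1% and 17.4% with BPTES and 27.8% and 31.8% with DMSO.

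Bcl2 in interstitial macrophage-like cells was also called without each library in turn (adjusted p = 0.00771 to 0.0451), where 1 group is a single library and the spread comes from the other group, and with DESeq2. It was not called with doublets kept (-0.37, adjusted p = 0.249), with a mitochondrial limit of 5% (-0.68, adjusted p = 0.115), with other clustering resolutions (-0.65 at 0.5, adjusted p = 0.107, and -0.47 at 2, adjusted p = 0.230) or with the BCL2 family kept among the variable genes (-0.68, adjusted p = 0.135). Markers of lymphocytes were lower beside it: the 6 T cell markers summed to 96.3, 77.9, 262 and 265 CPM, the 6 B cell markers to 101, 104, 462 and 338 CPM and the 6 NK markers to 76.4, 22.0, 175 and 144 CPM, with all 6 of each list lower in both BPTES libraries (26.5% of all genes in the class) and none at 0. Neutrophil markers summed to 113, 125, 422 and 402 CPM, with 3 of 6 lower. The interstitial macrophage markers themselves summed to 5226, 5120, 4995 and 6040 CPM. Of the dissociation genes, the heat shock genes Hspa1b (2.43, adjusted p = 0.0139) and Hspa1a (1.05, adjusted p = 0.0496) were called higher in this class. Median UMIs per cell were 29854, 30599.5, 26891.5 and 25968.5, median mitochondrial percentages 1.52, 1.45, 1.63 and 1.62%, and the class made up 1.60, 1.96, 0.805 and 1.07% of the cells of each library, so these too did not overlap between groups. The part of RNA from other cell types, of these genes or of these measures in the Bcl2 value was not tested.

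Whether the treatment difference itself varied between classes was tested against general capillary-like cells, which shared the libraries with each other class. Of 180 differences over 18 pairs of classes, edgeR called 0, where 0.135% of all differences were called, and 42 had an unadjusted p under 0.05, against 9.87% of all differences (DESeq2 was not run on them). For Bcl2 the lowest adjusted p was in interstitial macrophage-like cells (-1.82, adjusted p = 0.0539). By adjusted p, AT2-like (-1.10, adjusted p = 0.0540), non-classical monocyte-like (-1.29, adjusted p = 0.0543) and classical monocyte-like cells (-1.203, adjusted p = 0.0551) were next. Each Bcl2 difference subtracts the same log2 fold change, 0.89 in general capillary-like cells, so the differences are not independent. Within AT2-like and classical monocyte-like cells, edgeR gave no survival gene an unadjusted p under 0.05. For Bcl2l1 the neutrophil-like difference was -1.18 (adjusted p = 0.0787), and for Pmaip1 the lowest adjusted p were in classical monocyte-like (0.80, adjusted p = 0.100) and aerocyte-like cells (0.64, adjusted p = 0.101).

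The genes around the 10 were read in the same 12 classes. Of the 45 tested pairs of survival genes 16 had an unadjusted p under 0.05 (35.6%), of the 24 of pore formers 3 (12.5%) and of the 48 of BH3-only genes 11 (22.9%), against 14% of all genes. The inhibitors of caspases, Xiap, Birc2, Birc3, Birc5 and Cflar, had 13 of 56 (23.2%), genes of BCL2 family turnover and membrane partners 11 of 84 (13.1%), and the remaining family genes 8 of 60 (13.3%). None of these lists had a called pair. The dissociation stress genes had 62 of 144 (43.1%), with 2 called, both lower with BPTES: Egr1 in neutrophil-like cells (-1.12, adjusted p = 0.0133) and Ier3 in lymphatic-like cells (-0.63, adjusted p = 0.0421).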

How the data were processed

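The deposited files were filtered matrices of UMI counts, 1 per library, from 10x 3′ libraries, written by Cell Ranger 8.0.1 with build mm10 per the submitters' processing notes. Barcodes under 500 genes or 1000 UMIs, or over 10% mitochondrial UMIs, were dropped. Doublets scored against simulated pairs were removed, 0.4% per 1000 barcodes. Cells were clustered from 2000 variable genes, without BCL2 family genes, 40 principal components and 15 neighbours at resolution 1 (scanpy 1.11.5, igraph 0.11.9), and named from markers. Counts were summed per library and class and compared by edgeR 4.0.16 (R 4.3.3, TMM, filterByExpr, two-sided quasi-likelihood test, Benjamini-Hochberg adjustment over all genes of a class). DESeq2 1.42.0 was an alternative. Sums of dissociation and marker genes, their counts lying to one side, and the correlations between genes used CPM without TMM scaling. The fits were tested on simulated counts. Levels were not scaled by gene length, taking 1 UMI as 1 captured transcript. The 10 genes span 5209 (Bax) to 176115 bases (Bcl2), and a part of gene length in the levels was not tested. Promoters and gene positions came from RefSeq, GRCm38.p6, and the A1 transcripts from GENCODE. Named are all 10 genes, called genes of the lists, and 3 similar genes each. The 10 genes and the lists were chosen with earlier results of these data known. The result of 1 list is not reported here. Alternatives are in the closing section, and the 6 unnamed clusters were left out.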

Additional observations from a re-analysis of the deposited data

How the results depend on the processing

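For the 12 largest classes, against 0 calls in the edgeR fit, the 10 genes had 6 calls with DESeq2 (1.82%), 21 with no filter on low counts (3.35% of all genes), 1 at resolution 0.5 (0.242%), 1 at resolution 2 (0.105%) and 1 with clustering seed 1 (0.128%), and between 1 and 12 when 1 library was left out. The count stayed 0 with RLE normalisation, doublets kept, a mitochondrial limit of 5%, the BCL2 family kept among the variable genes, and cells under 3000 UMIs left out. Over all 19 classes it was 1. The seed, the shallow cells, the 19 classes, the crossed block and the scaling over all classes were chosen after seeing the data. The replicate numbers did not pair the libraries (correlation of deviations -0.127 to 0.124 over the 12 classes). With the replicate number as a block there were 13 calls (1.67% of all genes), and with a crossed block 4 (0.977%). The lowest class of the balance, NK-like at 0.48, stood at 0.10 without Mcl1 and at 1.73 on mean logs. The highest, adventitial fibroblast-like at 2.60, stood at 2.47 at resolution 0.5, 0.61 without Mcl1 and 2.24 on mean logs. Leaving out 1 library gave 0.45 to 0.52 and 2.57 to 2.64. Directions were followed only for the 38 gene and class pairs with an unadjusted p under 0.05, and among these 1 turned: Bcl2l1 in interstitial macrophage-like cells was -0.47, and 0.0922 with the limit of 5%. The cause was not tested. With 2 libraries per group, and few cells in small classes, adjusted p values moved with each library, and depth limits Bcl2a1b, Pmaip1 and Bid in classes with few UMIs.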
